A study of Mus musculus with 17 samples.

Results

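Transcripts of 35 genes of the unfolded protein and stress response of the endoplasmic reticulum (ER) were followed in mouse liver with and without hepatic NgBR and in the tumors that such knockout livers bore. The members were found by gene symbol in a table of 19151 genes from mice on a high-fat diet (HFD) and a table of 24233 genes from mice on a high-fat, high-cholesterol Western diet (WD), and all 35 were in both. They comprised 15 chaperones and folding enzymes of the ER lumen, 10 genes of ER-associated degradation (ERAD), the sensor Ern1 with its target Xbp1, the sensor Atf6, and 7 genes of the Perk and Atf4 arm. All 35 passed the filter on low counts in the fits of every comparison.

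Proteins that enter the secretory pathway fold in the ER with the help of chaperones, and many receive a sugar chain whose building block is carried on dolichol. When unfolded proteins pile up, the sensors Ire1 (encoded by Ern1), Atf6 and Perk (encoded by Eif2ak3) start separate signaling arms. Ire1 splices the Xbp1 mRNA, and Xbp1 and Atf6 switch on chaperone and ERAD genes, whereas Perk slows translation and raises the transcription factor Atf4, which drives amino acid synthesis genes and, later, the death-linked factor Ddit3 (Chop). The liver secretes most plasma proteins and keeps these chaperones at a high level without any added stress. Splicing of Xbp1, cleavage of Atf6, phosphorylation of Perk and the amount of Atf4 protein are not visible in gene counts. Only the amounts of the mRNAs are described here. The study's immunoblots showed more Atf4 protein in N-LKO (hepatic NgBR knockout) than in WT livers on HFD, which mRNA levels cannot address.

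N-LKO mice carried loxP-flanked NgBR alleles and a Cre driven by the albumin promoter, which is active in hepatocytes. The study names endothelial, stellate and Kupffer cells as examples of liver cells that express NgBR in these mice. The animals were C57BL6 males, and the comparison mice were labeled WT with no further detail on their alleles or on Cre. Chow was replaced by HFD or WD for 16 weeks. The 5 groups were 4 WT and 4 N-LKO livers on HFD, and 3 WT livers, 3 N-LKO livers and 3 tumors of N-LKO mice on WD. The labels call the samples biological replicates and do not say whether a tumor and an N-LKO liver came from the same mouse. They also do not say whether the N-LKO liver samples were free of tumor, and the study reports liver tumors in all N-LKO males on either diet. Each diet had its own table, so no group on HFD was compared directly with a group on WD.

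Libraries held 9096110 to 12215784 counts under HFD and 15494731 to 20200618 under WD. Nus1, the gene that encodes NgBR, measured 85.2, 96.0, 82.4 and 88.5 CPM, the counts scaled to a common library total, in the WT livers on HFD and 37.5, 35.4, 37.9 and 29.3 CPM in the N-LKO livers. Under WD it measured 98.8, 96.2 and 88.1 CPM in WT livers, 51.1, 47.2 and 41.7 CPM in N-LKO livers and 43.9, 34.4 and 28.9 CPM in tumors. Each library thus had the Nus1 level its label calls for, with a log2 fold change of -1.33 ± 0.097 under HFD (SE; adjusted p = 0.000194) and of -1.02 ± 0.16 under WD (adjusted p = 0.151). The 7 hepatocyte marker genes analysed summed to 57110 to 74260 CPM under HFD and 32330 to 61580 CPM under WD, with none at or under 3 counts. Marker genes of pancreatic acinar cells, which are rich in ER chaperones, were not analysed under HFD and under WD summed to at most 1.94 CPM except in WT liver replicate 3, with 34.6 CPM.

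The chaperone and ERAD genes share a known promoter element, the ER stress element (ERSE), in which CCAAT, the site of NF-Y, and CCACG, the site of Atf6 and Xbp1, lie 9 bases apart. RefSeq promoter windows (GRCm38.p6) of 300 bases, 250 before and 50 from the start of the gene, were matched to 31 of the 35 members by symbol. Exactly these letters at this spacing were present on either strand in 9 of the 31 members and in 37 of all 27025 symbols with a window (0.137%). These are the matches, written 5′ to 3′ on the strand that reads CCAAT first, with both boxes in capitals and the spacer in lower case, since they show how the spacer differs while the boxes are kept.
Hspa5, chr2:34772025-34772043, + strand: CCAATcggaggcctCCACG
Hsp90b1, chr10:86705638-86705656, - strand: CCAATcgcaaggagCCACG
Hsp90b1, chr10:86705533-86705551, + strand: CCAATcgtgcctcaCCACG
Calr, chr8:84847075-84847093, + strand: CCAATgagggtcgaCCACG
Canx, chr11:50325800-50325818, - strand: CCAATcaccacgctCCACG
Pdia6, chr12:17266491-17266509, + strand: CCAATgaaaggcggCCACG
Dnajc3, chr14:118937827-118937845, + strand: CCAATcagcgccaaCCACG
Creld2, chr15:88819520-88819538, - strand: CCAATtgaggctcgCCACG
Syvn1, chr19:6046532-6046550, + strand: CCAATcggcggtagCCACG
Derl3, chr10:75893242-75893260, - strand: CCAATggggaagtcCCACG

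All 10 ERSE matches lay before the gene start, the nearest in Syvn1 at -44 to -26 and the farthest in Hsp90b1 at -212 to -194, and 5 of the 9 genes had only a match that read along the gene. The related element ERSE-II, in which ATTGG and CCACG lie 1 base apart, was present in 2 members (6.45%) and in 12 symbols (0.0444%). In Herpud1 it lay at -52 to -42 and in Dnajb11 just past the start at 8 to 18.
Herpud1, chr8:94386377-94386387, + strand: ATTGGgCCACG
Dnajb11, chr16:22857852-22857862, + strand: ATTGGcCCACG

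The promoter of Hspa5, which encodes the main ER chaperone BiP, is shown whole before its RefSeq start, with the boxes of its single exact ERSE in capitals and further CCAAT boxes left in lower case. In these 250 bases, CCAAT occurred 4 times on either strand and CCACG 1 time. The gene start in the deposited tables, at position 34771970 of chromosome 2, falls inside this window.
Hspa5, chr2:34771840-34772089, + strand: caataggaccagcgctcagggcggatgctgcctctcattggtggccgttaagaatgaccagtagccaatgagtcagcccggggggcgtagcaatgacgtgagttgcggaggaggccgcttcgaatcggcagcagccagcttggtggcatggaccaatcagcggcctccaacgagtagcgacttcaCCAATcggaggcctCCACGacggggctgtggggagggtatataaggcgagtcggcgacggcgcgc

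The C/EBP-ATF response element (CARE), which Atf4 binds in amino acid and stress genes, was searched as TGATGNAA on either strand. It was present in 4 members (12.9%), of which Asns, Trib3 and Chac1 belong to the Perk and Atf4 arm and Herpud1 to ERAD, and in 4.51% of all symbols. The matches are shown with 10 bases on each side and the element in capitals, because Asns, Trib3 and Chac1 are the Atf4 targets described later. The unfolded protein response element TGACGTGG was in 0 of the 31 members and in 0.714% of symbols, which says only that these letters are not in these windows. No match of one element overlapped a match of another.
Asns, chr6:7693215-7693242, - strand: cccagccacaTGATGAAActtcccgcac
Trib3, chr2:152344029-152344056, + strand: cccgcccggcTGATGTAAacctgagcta
Chac1, chr2:119351039-119351066, - strand: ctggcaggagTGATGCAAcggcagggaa
Herpud1, chr8:94386307-94386334, - strand: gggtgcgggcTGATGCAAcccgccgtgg

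**Figure D1:**
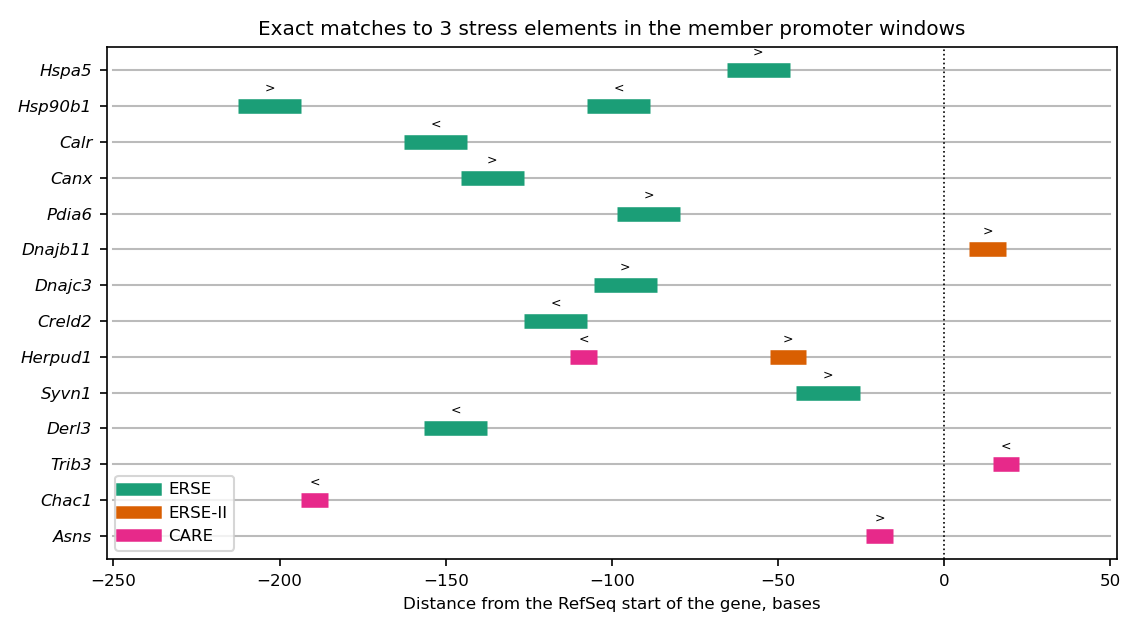
Each row is the 300-base RefSeq promoter window of a member with a match, with the distance from the gene start in bases on the x axis, ERSE in green, ERSE-II in orange, CARE in pink, and arrows for matches along (>) or against (<) the gene. All ERSE matches lie before the start, and the matches in Dnajb11 and Trib3 lie past it.

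Per length of transcript, the 4 most abundant members were chaperones in every group. In WT livers on HFD, Hspa5 had a mean of 469 CPM per kilobase of its longest transcript, Hsp90b1 (Grp94) 462, the disulfide isomerase P4hb 461 and calreticulin (Calr) 389. On the same scale Xbp1 had 94.8, Atf4 34.5, Atf6 12.9, Ern1 6.69, Ddit3 5.18 and Eif2ak3 3.43 CPM per kilobase, and the amino acid enzyme Asns, at 0.336, was the lowest of the 35. Under WD, P4hb led the WT livers with 465 CPM per kilobase, ahead of Hsp90b1 with 323 and Hspa5 with 320, and Asns was again the lowest with 0.699. The 3 sensors were thus far below the 4 leading chaperones on this scale.

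Within each group the chaperones differed widely between libraries and did so together. Among the WT livers on HFD, replicate 1 was the lowest for 15 of the 15 chaperones and replicate 2 the highest for 14 of 15. Hspa5 measured 895, 2537, 2127 and 1335 CPM in WT replicates 1 to 4 and 857, 1279, 1385 and 955 CPM in N-LKO replicates 1 to 4, so the highest WT liver had 2.84 times the level of the lowest. Sdf2l1, a component of an ER chaperone complex and the most variable chaperone here, measured 6.76, 52.1, 28.6 and 18.9 CPM in the WT livers, a 7.71-fold range within 1 group.

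The same held under WD. N-LKO liver replicate 1 was the highest of its group for 15 of 15 chaperones, WT liver replicate 2 for 14 and tumor replicate 1 for 13, and tumor replicate 3 was the lowest of the tumors for 14. Hspa5 measured 1061, 1531 and 937 CPM in WT livers, 1287, 661 and 692 CPM in N-LKO livers and 1283, 1272 and 467 CPM in tumors. Each of these groups held a library at 1283 CPM or more, and the tumors held both the lowest value and some of the highest. The acinar markers were at 0 in WT liver replicate 2, and WT liver replicate 3, which had them at 34.6 CPM, was the lowest of its group for 14 of 15 chaperones. Whether acinar cells had a part in the chaperone levels was not tested.

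The median over the 15 chaperones of the highest level in a group divided by the lowest was 2.27 in WT livers and 1.65 in N-LKO livers on HFD, and 1.64, 1.72 and 2.23 in WT livers, N-LKO livers and tumors on WD. For the ERAD genes the same ratio was 1.45, 1.25, 1.39, 1.44 and 1.55 in that order. For Atf6 it was 1.28, 1.11, 1.24, 1.25 and 1.12, below the chaperone median in each group. Single chaperones could be as steady, such as Canx at 1.23 in N-LKO livers on WD. The 7 Perk and Atf4 genes moved with the chaperones in some libraries and not in others. Their median deviation from the mean of the diet was -0.40 and 0.30 in WT replicates 1 and 2 on HFD and -0.32 in tumor replicate 3, on the same side as the chaperones (-0.52, 0.68 and -0.62). In tumor replicate 2, 6 of these 7 were the highest of the tumors but only 2 of 15 chaperones were, and among the N-LKO livers on HFD replicate 2 was the highest for 5 of 7 and for 4 of 15.

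**Figure D2:**
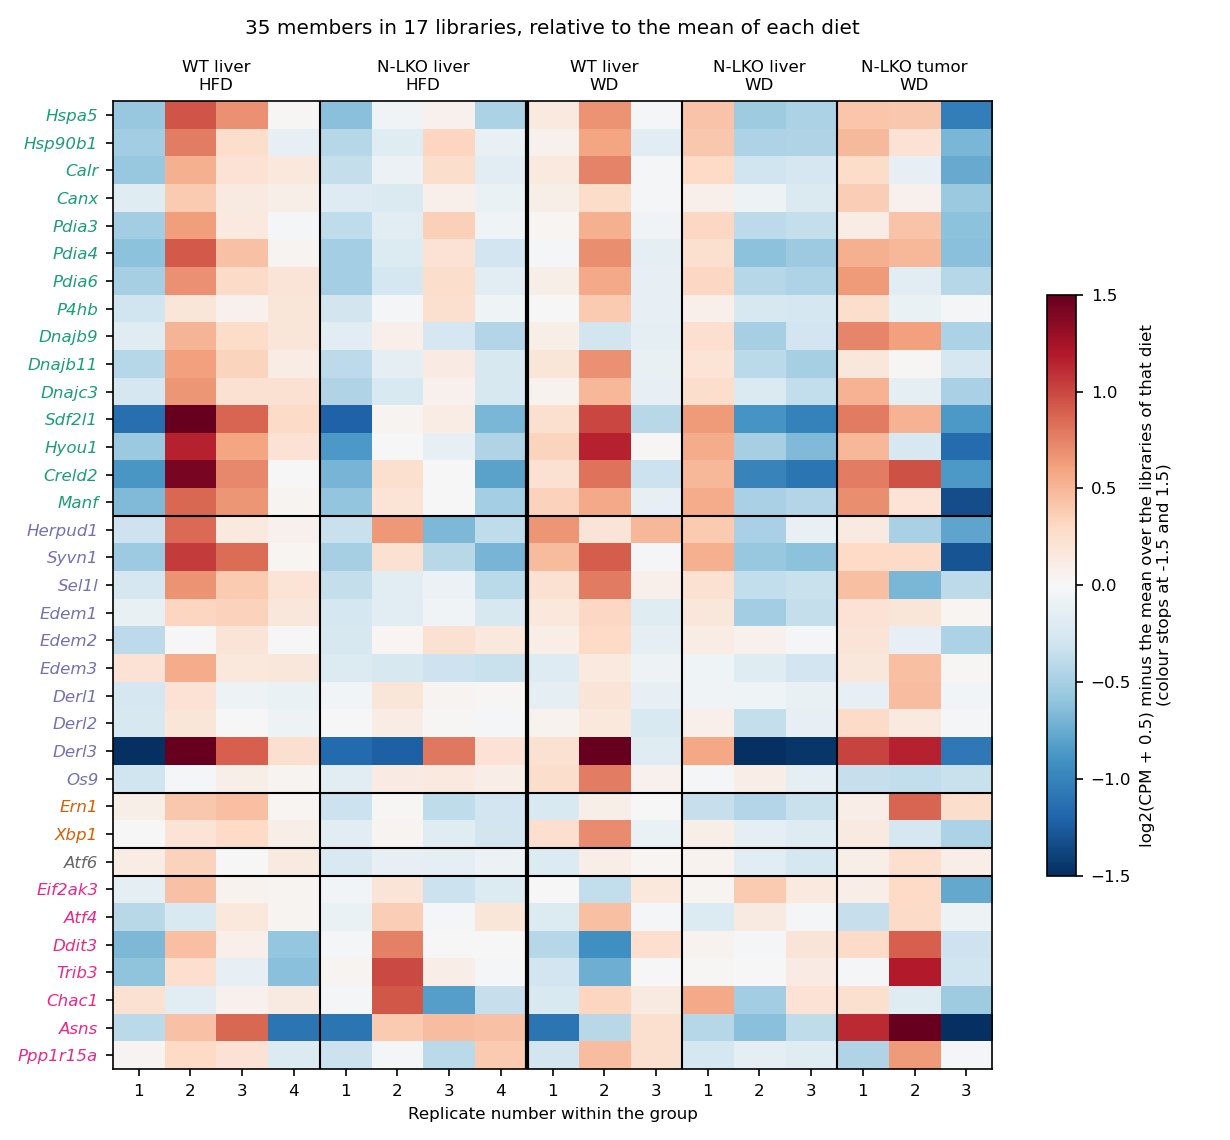
Heat map of the 35 members (rows, grouped by arm) in the 17 libraries (columns, by group and replicate), as log2(CPM + 0.5) minus the mean over all libraries of the same diet. Chaperone and ERAD rows turn red or blue together within a library, as in WT liver replicates 1 and 2 on HFD and tumor replicate 3, and in tumor replicate 2 the Perk and Atf4 rows at the bottom stand out with a median of 0.64 where the chaperones have 0.21.

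**Figure D3:**
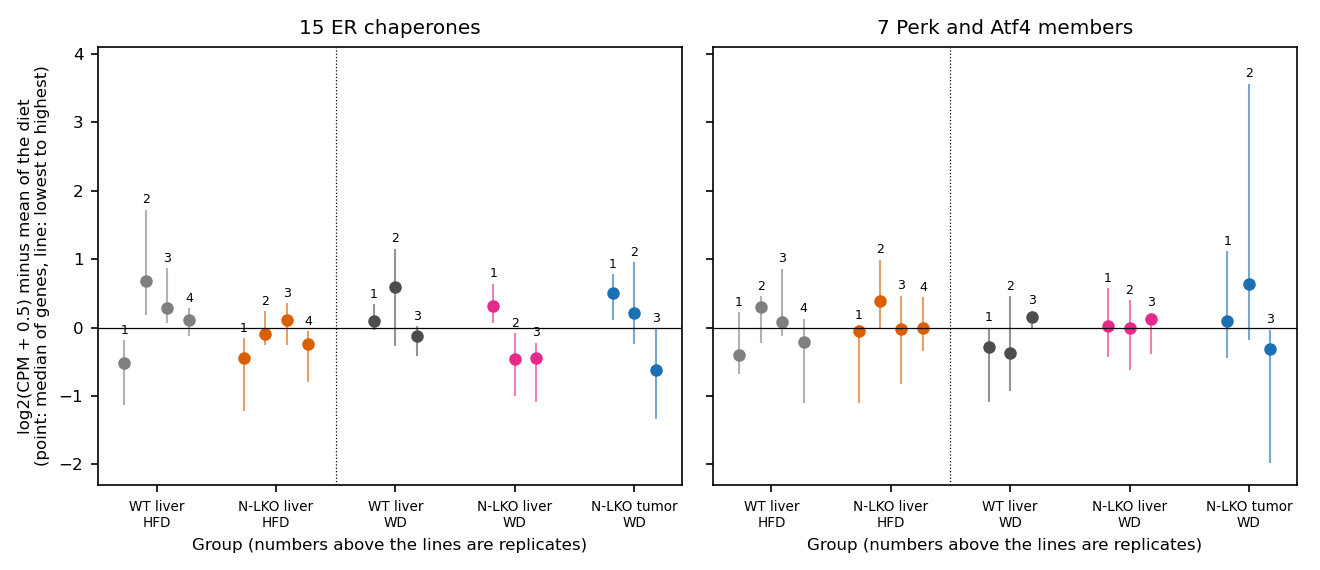
For every library, the median (point) and the lowest to highest value (line) over the 15 chaperones (left) and the 7 Perk and Atf4 members (right) of log2(CPM + 0.5) minus the mean of the diet. The chaperone medians of WT livers on HFD run from -0.52 to 0.68 and those of tumors from -0.62 to 0.50.

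Under HFD, Edem3 and Ern1 fell in N-LKO livers, and no other member passed the test. The log2 fold change was below 0 for 15 of 15 chaperones, 6 of 10 ERAD genes, Ern1, Xbp1 and Atf6, and for 2 of the 7 Perk and Atf4 genes. In all, 26 of 35 members (74.3%) were below 0, where 50.9% of the 13460 genes tested were, and the member median was -0.30 against -0.0058 over all genes. With edgeR's quasi-likelihood test and an adjusted p under 0.05, 2 members (5.71%) were called, both lower, where 4.84% of all genes were called and 2.29% were called lower. At an unadjusted p under 0.05, 12 members (34.3%) differed, all of them lower, where 22.7% of all genes differed and 11.5% were lower. The share of members called was near that of all genes. At the unadjusted threshold the share of lower members was above that of all genes, with no test of the difference. Because the chaperones rose and fell together within a library, counts of members on 1 side are not counts of separate observations. In bulk tissue, fewer cells of a type and less RNA per cell cannot be told apart.

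The count moved with single WT livers. Without WT replicate 1, the library with the lowest chaperones, 9 members were called, all lower (Dnajb9, Dnajc3, Hyou1, Sdf2l1, Syvn1, Sel1l, Edem1, Edem3 and Ern1), and the member median was -0.43. Without WT replicate 2, the library with the highest, 1 was called (Edem3) and the median was -0.18. The same direction was thus present with either library left out, and its size was not the same.

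Edem3, a mannosidase-like protein that trims misfolded glycoproteins for ERAD, fell in N-LKO livers on HFD. It measured 47.5, 60.4, 45.6 and 46.1 CPM in the WT livers and 35.6, 34.5, 32.9 and 32.5 CPM in the N-LKO livers. The groups did not overlap, which held for 3 of 35 members (8.57%) and for 14.8% of all genes, and the N-LKO livers differed little among themselves. The log2 fold change was -0.56 ± 0.10 (SE; adjusted p = 0.0156), and it passed the test with each library left out in turn, at adjusted p-values of 0.0196 to 0.0442. Under the length and GC offset it was -0.43 and only just passed (adjusted p = 0.0495).

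Ern1, which encodes the sensor Ire1α, also fell. Levels were 41.4, 51.4, 53.4 and 39.7 CPM in WT and 31.1, 39.5, 29.8 and 31.7 CPM in N-LKO livers. The highest N-LKO value lay just under the lowest WT value, and the log2 fold change was -0.49 ± 0.12 (adjusted p = 0.0455). This call was lost, at adjusted p-values of 0.0545 to 0.125, when any of WT replicates 2, 3 and 4 or N-LKO replicates 1, 3 and 4 was left out, with the log2 fold change then between -0.56 and -0.42. It was also lost without the filter on low counts (0.0589) and under the length and GC offset (-0.38, adjusted p = 0.125).

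Xbp1 and Atf6, the transcription factors of the chaperone arms, lay lower without passing the threshold. Xbp1 measured 181, 210, 223 and 193 CPM in WT and 163.8, 186.8, 160.6 and 150.1 CPM in N-LKO livers, a log2 fold change of -0.29 ± 0.095 (adjusted p = 0.0993), and the groups overlapped through N-LKO replicate 2. Atf6 measured 90.97, 107, 83.6 and 91.9 CPM in WT and 71.4, 77.1, 75.6 and 79.2 CPM in N-LKO livers. Its groups did not overlap, and its log2 fold change was -0.30 ± 0.087 (adjusted p = 0.0694 in edgeR and 0.0445 in DESeq2), which became -0.17 (adjusted p = 0.279) under the length and GC offset.

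Among the chaperones, none passed. Hspa5 had a log2 fold change of -0.62 ± 0.28 (adjusted p = 0.206), which was -0.38 without WT replicate 2 and -0.84 without WT replicate 1. Sdf2l1 had one of -1.15 ± 0.48 (0.178), Creld2, a disulfide isomerase-like protein, of -0.81 ± 0.40 (0.250) and Hyou1, the exchange factor of BiP known as Grp170, of -0.80 ± 0.30 (0.132). The N-LKO livers had Sdf2l1 at 6.37, 15.9, 16.7 and 9.42 CPM, with only replicate 1 just under the WT range. Dnajb9 (ERdj4) and Dnajc3 (p58IPK), J-domain partners of BiP, were at -0.40 ± 0.14 (0.121) and -0.45 ± 0.17 (0.135). The other values were those of the disulfide isomerases Pdia4 (-0.47), Pdia6 (-0.37), Pdia3 (-0.15) and P4hb (-0.06), the lectin chaperones Calr (-0.21) and Canx (-0.23), Hsp90b1 (-0.25), the BiP cofactor Dnajb11 (-0.35) and the secreted stress factor Manf (-0.53), at adjusted p-values of 0.280 to 0.823. For all 15 chaperones the groups overlapped.

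In the ERAD group, the values lay on both sides of 0. Syvn1, the ubiquitin ligase Hrd1, was at -0.78 ± 0.31 (adjusted p = 0.153), its partner Sel1l at -0.54 ± 0.16 (0.0767) and Herpud1, which holds the complex together, at -0.34 ± 0.29 (0.511). Edem1, which like Edem3 prepares glycoproteins for disposal, was at -0.38 ± 0.10 (0.0630). In contrast Derl1 (0.09), Derl2 (0.06), Edem2 (0.09) and the lectin Os9 (0.09) were slightly above 0, at adjusted p-values of 0.624 to 0.767. Derl3, a derlin of secretory cells, had the lowest ERAD value (-0.98 ± 0.63, adjusted p = 0.386) on 1.14 to 15.2 CPM in WT and 1.48 to 7.49 CPM in N-LKO livers, so its groups overlapped fully. Sel1l and Edem1 passed with DESeq2, at adjusted p-values of 0.0245 and 0.0233.

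The Perk and Atf4 arm did not share the lower values. Eif2ak3 measured 12.9, 19.6, 14.8 and 14.6 CPM in WT and 13.8, 16.4, 11.3 and 12.3 CPM in N-LKO livers (log2 fold change -0.20 ± 0.15, adjusted p = 0.468). Atf4 measured 55.6, 63.4, 82.9 and 76.6 CPM in WT and 69.1, 95.6, 73.0 and 84.5 CPM in N-LKO livers (0.21 ± 0.14, adjusted p = 0.386). Ddit3 was low throughout, with 3.22, 7.63, 5.77 and 3.46 CPM in WT and 5.29, 9.54, 5.43 and 5.43 CPM in N-LKO livers (0.36 ± 0.29, adjusted p = 0.505). In each case the groups overlapped. Trib3, a pseudokinase induced by Ddit3 and Atf4, had the highest value of the 35 members at 0.62 ± 0.29 (adjusted p = 0.229), and the other 3 genes, the glutathione-cleaving Chac1, Asns and the phosphatase subunit Ppp1r15a (Gadd34), lay between -0.15 and 0.06.

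**Figure D4:**
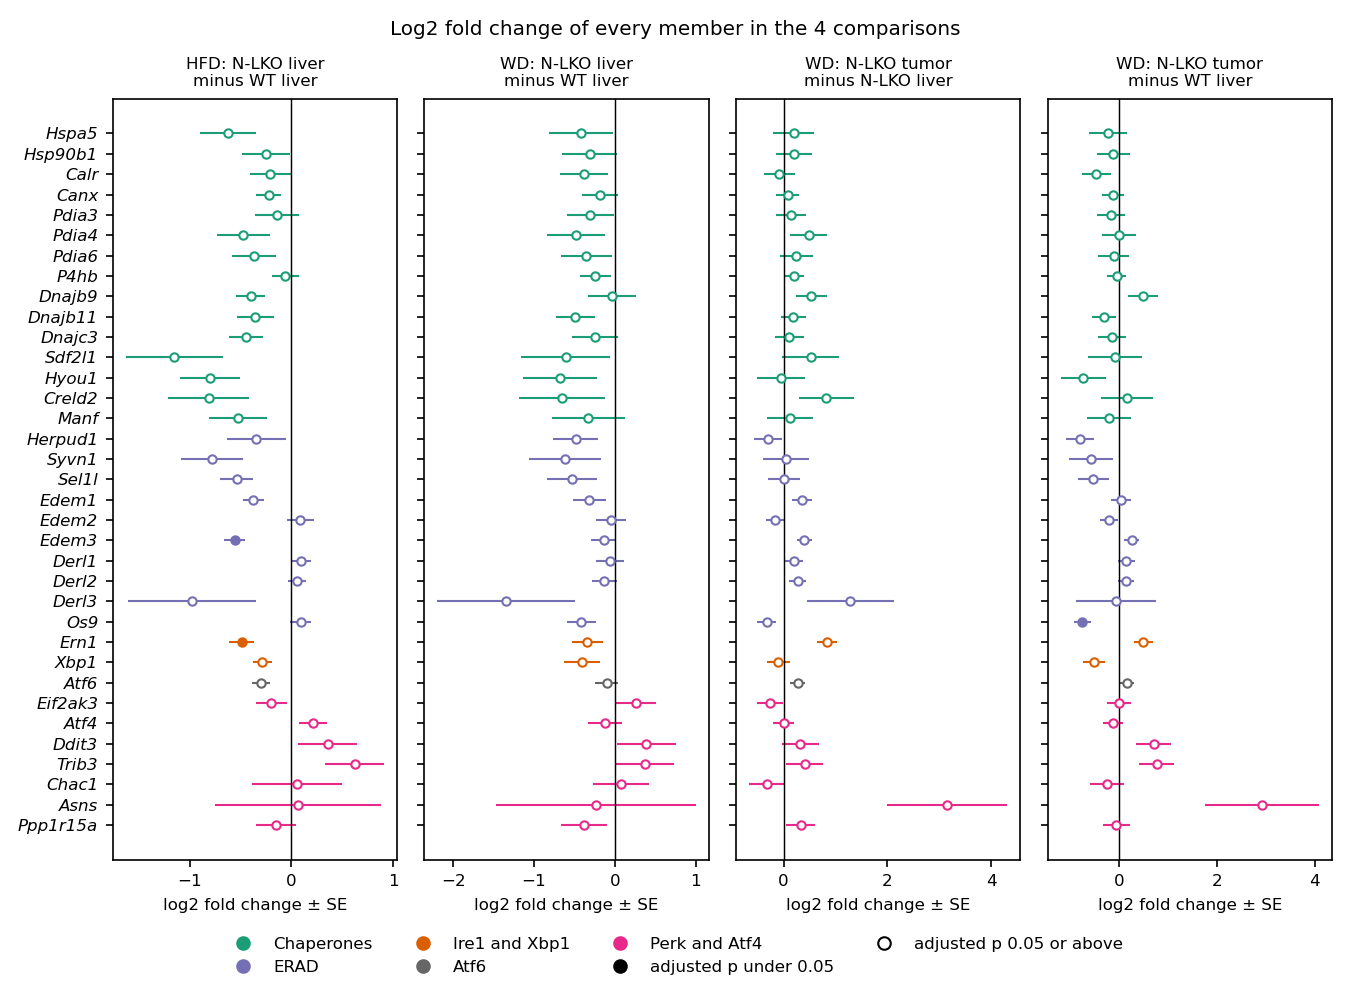
Log2 fold change with its SE for each member (rows, coloured by arm) in the 4 comparisons (panels, each with its own x axis), with filled points where the adjusted p was under 0.05. The filled points are Edem3 and Ern1 under HFD and Os9 in tumors against WT liver, and the chaperones lie left of 0 in both N-LKO liver comparisons.

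Under WD, the chaperones again lay below 0 in N-LKO livers, here with all ERAD genes, and no member passed the test. The log2 fold change was below 0 for 15 of 15 chaperones, 10 of 10 ERAD genes, Ern1, Xbp1 and Atf6, in all for 31 of 35 members (88.6%) where 48.6% of the 17829 genes tested were below 0. The member median was -0.32 against 0.01 over all genes. No gene at all was called in this comparison by edgeR (0.0%) or limma-voom (0.0%), and DESeq2 called 0.616% of genes but 0 members. At an unadjusted p under 0.05, 1 member (2.86%) differed, against 12.4% of all genes, and 1 member (2.86%) had groups that did not overlap, against 27.9% of all genes. Both shares were below those of all genes, although 31 of the 35 members lay on 1 side. The chaperones moved together within a library, so the 31 are not separate observations. Without WT liver replicate 2 the median was -0.13 and without N-LKO liver replicate 1 it was -0.46, the 2 livers that were highest in their groups for 14 and 15 chaperones.

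The member at that threshold was Os9, a lectin that passes misfolded glycoproteins to the Hrd1 complex, with 146, 207 and 127 CPM in WT and 120, 130 and 110 CPM in N-LKO livers (log2 fold change -0.42 ± 0.18, unadjusted p = 0.0402, adjusted p = 0.389). The member without overlap was Ern1, with 63.5, 79.6 and 75.01 CPM in WT and 58.6, 54.8 and 58.9 CPM in N-LKO livers (-0.34 ± 0.19, adjusted p = 0.481). Xbp1 measured 192, 263 and 150 CPM in WT and 171, 146 and 140 CPM in N-LKO livers (-0.41 ± 0.22, adjusted p = 0.471). Neither Atf6, with 130, 161.03 and 153 CPM in WT and 156, 134 and 125 CPM in N-LKO livers (-0.10 ± 0.14), nor Hspa5 (-0.42 ± 0.40) separated the groups. Edem3, which fell under HFD, measured 74.6, 94.1 and 80.7 CPM in WT and 81.4, 75 and 69.7 CPM in N-LKO livers (-0.14 ± 0.15, adjusted p = 0.700).

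In the Perk arm under WD, Eif2ak3 measured 33.9, 26.2 and 38.0 CPM in WT and 34.9, 44.9 and 37.6 CPM in N-LKO livers (0.26 ± 0.25), Atf4 56.1, 88.6 and 63.5 CPM in WT and 56.0, 71.2 and 63.6 CPM in N-LKO livers (-0.13 ± 0.21), and Ddit3 4.80, 3.25 and 7.92 CPM in WT and 6.84, 6.54 and 7.597 CPM in N-LKO livers (0.39 ± 0.36). All overlapped. Trib3 (0.37) lay above 0 as under HFD and Ppp1r15a (-0.38) below it.

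An interaction term over the 14 livers asked whether the effect of genotype differed between the diets. Each diet had its own table, so a dependence on diet cannot be told apart from a difference between the tables. No member was called by edgeR, by DESeq2 or by limma-voom, where the 3 tools called 1.62%, 6.31% and 1.94% of all genes. At an unadjusted p under 0.05, 2 members (5.71%) differed, against 20.0% of all genes. Edem3 had a difference of effects, WD minus HFD, of 0.44 ± 0.15 (unadjusted p = 0.0105, adjusted p = 0.126), its effect being nearer 0 under WD. Os9 had a difference of -0.48 ± 0.20 (unadjusted p = 0.0288, adjusted p = 0.193), being at 0.09 under HFD and at -0.42 under WD. The call of Edem3 under HFD alone is therefore not shown to be particular to that diet.

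**Figure D5:**
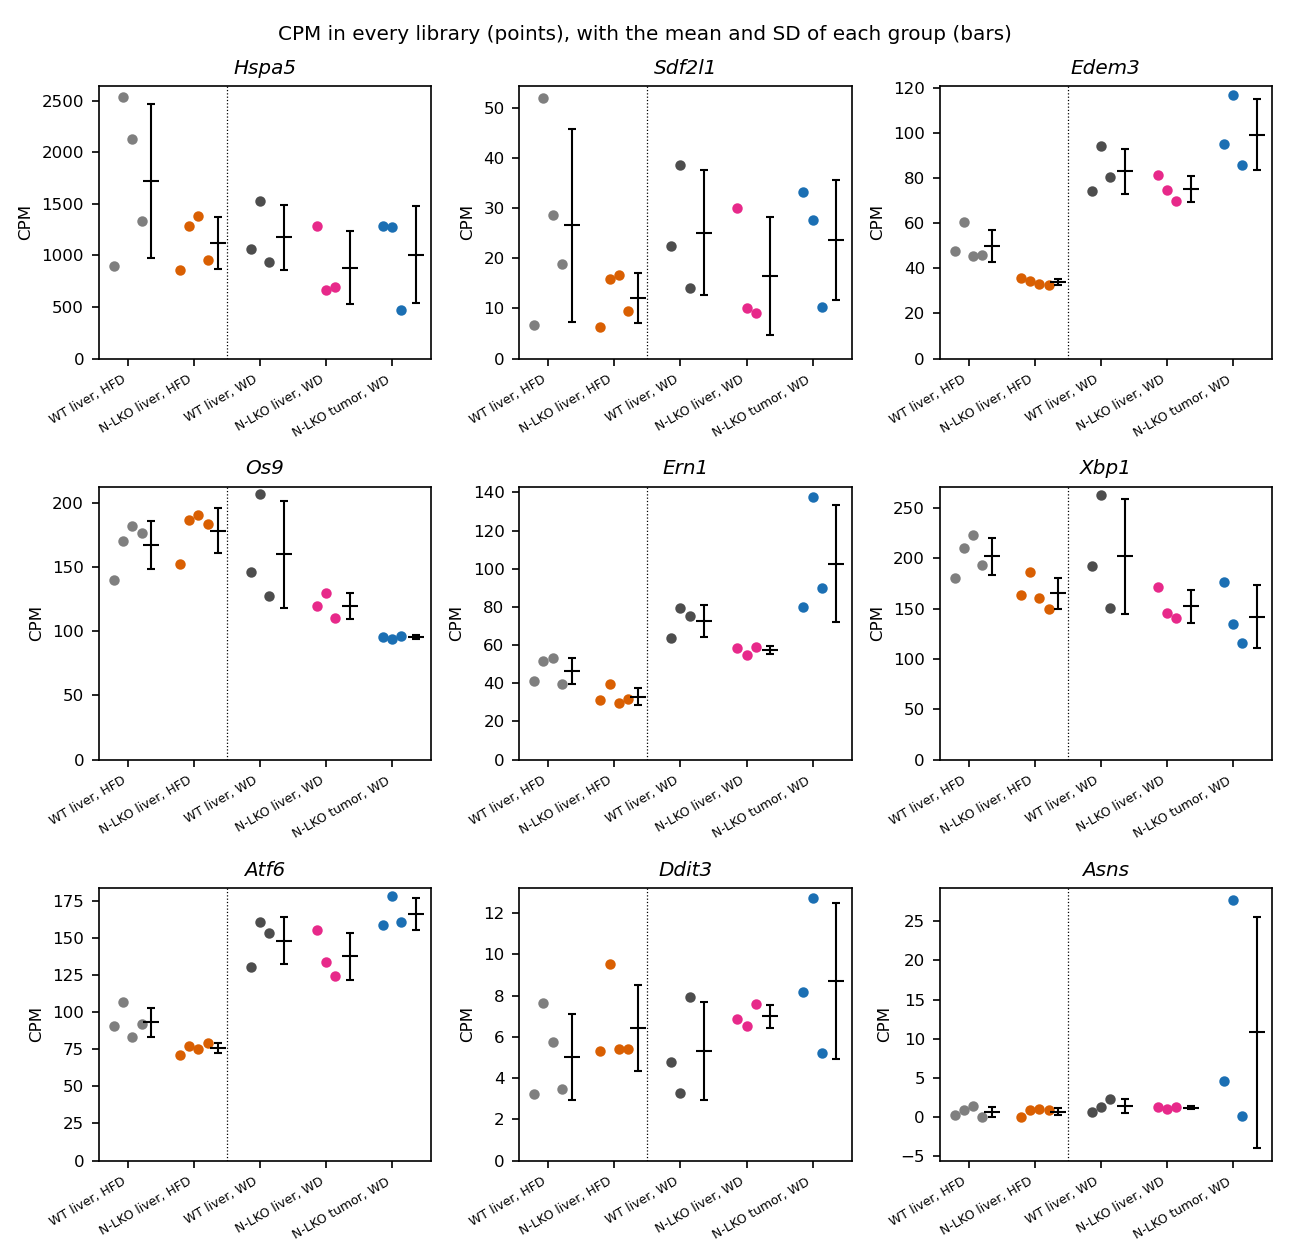
CPM of 9 members in every library (points), with the mean and SD of each group (bars), on linear axes. Edem3 and Ern1 are lower in N-LKO than in WT livers on HFD, the 3 tumors lie close together for Os9 at 94.1 to 96.6 CPM, and for Asns 1 tumor reaches 27.6 CPM.

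Tumors of N-LKO mice on WD were compared with both WD liver groups. The comparisons share the 3 tumors, so they are not independent of each other. Against N-LKO livers, 13 of 15 chaperones and 7 of 10 ERAD genes were above 0 and the member median was 0.20 (0.015 over all genes). Against WT livers, 12 of 15 chaperones and 6 of 10 ERAD genes were below 0 and the member median was -0.11 (0.041 over all genes). By these fold changes, 10 of the 15 chaperones had tumor levels above those of N-LKO livers and below those of WT livers, without a test of the order. Hspa5 was at 0.20 ± 0.40 (adjusted p = 0.836) against N-LKO liver and at -0.22 ± 0.40 (0.734) against WT liver. The median against N-LKO livers was 0.04 without tumor replicate 2, 0.08 without tumor replicate 1, 0.09 and 0.05 without N-LKO liver replicates 2 and 3, 0.38 without tumor replicate 3 and 0.39 without N-LKO liver replicate 1. The median against WT livers changed sign, to 0.11 without WT liver replicate 2 and to 0.10 without tumor replicate 3, so its direction rested on those libraries.

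No member was called between tumors and N-LKO livers by edgeR, where 0.499% of all genes were, or by limma-voom (0.101% of genes), whereas DESeq2, which called 5.74% of genes, called Ern1. At an unadjusted p under 0.05, 3 members (8.57%) differed, against 18.3% of all genes, and 4 (11.4%) did not overlap, against 23.1%. Against WT livers edgeR called 1 member (2.86%), Os9, which was lower, where 14.9% of all genes were called and 6.8% were called lower. Here 5 members (14.3%) were under an unadjusted p of 0.05, against 32.5% of all genes, and 3 (8.57%) did not overlap, against 34.1%. Each of these shares of members was below that of all genes, with no test of the difference.

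Os9 fell in tumors relative to WT livers. The tumors measured 95.7, 94.1 and 96.6 CPM, all below the N-LKO livers (120, 130 and 110 CPM) and the WT livers (146, 207 and 127 CPM). The log2 fold change against WT liver was -0.74 ± 0.18 (adjusted p = 0.0243) and against N-LKO liver -0.33 ± 0.18 (adjusted p = 0.354). The call was lost without WT liver replicate 2 (-0.52, adjusted p = 0.0674), without tumor replicate 2 (-0.77, adjusted p = 0.0506) and when the N-LKO livers were left out of the fit (-0.76, adjusted p = 0.0671).

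Ern1 took the opposite side. The tumors measured 80.1, 137 and 89.9 CPM, above every WT liver (63.5 to 79.6 CPM) and every N-LKO liver (54.8 to 58.9 CPM). The log2 fold change was 0.84 ± 0.20 against N-LKO liver (adjusted p = 0.0846) and 0.50 ± 0.19 against WT liver (adjusted p = 0.107). Without tumor replicate 1 both differences passed (0.98, adjusted p = 0.0109, and 0.64, adjusted p = 0.0358), and without tumor replicate 2, the highest, they were 0.56 and 0.19 and did not pass. Its target Xbp1 did not follow, with 177, 134 and 115 CPM in the tumors (-0.10 ± 0.22 against N-LKO liver, -0.51 ± 0.22 and adjusted p = 0.148 against WT liver).

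Atf6 measured 159, 179 and 161.3 CPM in the tumors, all above the N-LKO livers and overlapping the WT livers (0.27 ± 0.14, adjusted p = 0.343, and 0.17 ± 0.14, adjusted p = 0.443). Edem3 measured 95.4, 117 and 86.0 CPM, all above the N-LKO livers (0.40 ± 0.15, adjusted p = 0.206). Herpud1 measured 297, 194 and 157 CPM in tumors against 428, 310 and 384 CPM in WT livers, without overlap (-0.79 ± 0.28, adjusted p = 0.0802 in edgeR and 0.0260 in DESeq2). Within the Hrd1 complex, Sel1l (-0.52) and Syvn1 (-0.57) were also below 0 against WT livers, with 1 tumor inside the WT range for Sel1l and 2 for Syvn1, where tumor replicate 3 alone, at 31.2 CPM, lay below it.

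The Perk and Atf4 arm showed its widest spread in the tumors. Asns, the asparagine synthetase driven by Atf4, measured 4.67, 27.6 and 0.104 CPM in tumors, 0.617, 1.29 and 2.32 CPM in WT livers and 1.27, 1.04 and 1.33 CPM in N-LKO livers. Tumor replicate 2 was thus far above all livers on WD, replicate 1 above them and replicate 3, with no more than 3 counts, below them. The log2 fold change was 3.16 ± 1.16 against N-LKO liver (adjusted p = 0.195) and 2.92 ± 1.16 against WT liver (adjusted p = 0.112), and against WT liver it passed without tumor replicate 3 (adjusted p = 0.0218). Trib3 was at 15.2, 36.03 and 12.5 CPM and Ddit3 at 8.18, 12.7 and 5.20 CPM in tumors 1 to 3, with log2 fold changes against WT liver of 0.77 ± 0.36 (adjusted p = 0.165) and 0.71 ± 0.36 (adjusted p = 0.203). In all 3 genes tumor replicate 2 was the highest and tumor replicate 3 the lowest. Chac1 and Ppp1r15a did not share this order. Chac1 was highest in tumor replicate 1, at -0.32 ± 0.35 against N-LKO liver and -0.25 ± 0.35 against WT liver. Ppp1r15a was lowest in tumor replicate 1, at 0.33 ± 0.28 and -0.05 ± 0.28 in the same order. Eif2ak3, at 36.5, 41.8 and 19.8 CPM, and Atf4, at 50.6, 78.9 and 61.2 CPM, stayed within the range of the livers except for tumor replicates 3 and 1, which lay below it.

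Genes of the same pathways outside the 35 members were read from lists of ER folding, ERAD, regulators, Atf4 targets and cytosolic heat shock. Under HFD, where 4.84% of all genes were called, 1 of 27 other ER folding genes (3.70%) passed. It was Hspa13, an ER-associated chaperone (-0.52 ± 0.11, adjusted p = 0.0220), which fell. None of 19 tested ERAD genes, 9 regulators and 32 tested Atf4 targets passed. Of 19 tested cytosolic and mitochondrial heat shock genes 1 (5.26%) passed, Hspe1, the mitochondrial chaperonin partner, which rose (0.45 ± 0.090, adjusted p = 0.0203). In the interaction, where 1.62% of all genes were called and diet and table cannot be told apart, 3 genes of these lists passed. Their effect was lower under WD than under HFD: Hspe1 (-0.70 ± 0.14, adjusted p = 0.0287), the serine enzyme Shmt2 (-0.74 ± 0.15, 0.0303) and Tmbim6, an inhibitor of ER-linked cell death (-0.53 ± 0.13, 0.04995). Between N-LKO and WT livers on WD, and between tumors and N-LKO livers, none passed in any of the lists.

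Between tumors and WT livers 14.9% of all genes were called, against 15.8% of the ERAD genes and 18.5% of the ER folding genes. The shares called were 20.0% of the heat shock genes, 23.7% of the Atf4 targets and 33.3% of the 9 regulators. No test of the difference from all genes was run. Of 38 tested Atf4 targets 7 rose and 2 fell, and among the risers the cystine carrier Slc7a11 (5.59 ± 1.07, adjusted p = 0.0133), the serine synthesis enzyme Psat1 (3.06 ± 0.71, 0.0220) and the folate enzyme Mthfd2 (2.54 ± 0.40, 0.00839) changed most. Slc7a11 measured 44.5 CPM in tumor 1, more in tumor 2 and 5.05 CPM in tumor 3, and 1.02 to 2.55 CPM in the livers on WD, and Psat1 measured 8.53, 22.1 and 3.38 CPM in tumors and 0.339 to 3.62 CPM in those livers. Tumor replicate 2 was again the highest and tumor replicate 3 the lowest, as for Asns, Trib3 and Ddit3. Of 27 ER folding genes 3 rose, the peptidyl-prolyl isomerase Fkbp11 (1.76 ± 0.34, adjusted p = 0.0137), the glucosyltransferase homolog Uggt2 (1.46 ± 0.37, 0.0285) and the reductase Dnajc10 (0.94 ± 0.20, 0.0178), and 2 fell. Among the ERAD genes Faf2 (-0.68 ± 0.14, adjusted p = 0.0153) and Nploc4 (-0.62 ± 0.18, 0.0412) fell, and of 20 heat shock genes 4 fell, among them Hspb1 (-1.20), Hspb8 (-1.08) and Dnajb1 (-0.88). Of 9 regulators Nfya, a subunit of the CCAAT-binding factor NF-Y, rose (0.51 ± 0.15, adjusted p = 0.0434), and Creb3l3 (-0.57 ± 0.17, 0.0493) and Tmbim6 (-0.51 ± 0.15, 0.04996) fell.

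Cell type markers moved with some of these groups, and their part in the results was not tested. The summed level of 6 bile duct markers was 17.4 to 69.6 CPM in WT livers, 115 to 151 CPM in N-LKO livers and 197 to 523 CPM in tumors on WD, and 20.5 to 38.4 CPM in WT and 54.6 to 99.9 CPM in N-LKO livers on HFD. The 7 markers of B and plasma cells analysed, which are rich in ER chaperones, summed to 6.91 to 9.33 CPM in WT livers, 16.1 to 25.9 CPM in N-LKO livers and 20.9 to 34.1 CPM in tumors on WD, and to 9.92 to 16.5 CPM and 12.1 to 22.4 CPM in WT and N-LKO livers on HFD. In WT livers on HFD, the bile duct markers Krt7 and Cldn7, the plasma cell marker Mzb1 and the T cell markers Cd3d and Cd8a had no more than 3 counts in any library. Hepatocyte markers summed to 45340 to 54860 CPM in WT livers, 32330 to 41510 CPM in N-LKO livers and 35530 to 61580 CPM in tumors on WD, and overlapped between genotypes on HFD. The 8 macrophage markers summed to 139 to 198 CPM in WT livers and 83.5 to 172 CPM in N-LKO livers on HFD, and the 6 endothelial markers to 106 to 130.0 CPM and 76.7 to 112 CPM. The 7 stellate cell markers summed to 144 to 251 CPM in WT and 201 to 295 CPM in N-LKO livers on HFD. On WD, the macrophage markers summed to 606 to 970, 662 to 765 and 414.5 to 783 CPM in WT livers, N-LKO livers and tumors. In that order the stellate cell markers were at 416 to 832, 803 to 972 and 515 to 943 CPM. The endothelial markers were at 285 to 308, 251 to 299 and 294 to 339 CPM. The 6 T cell markers summed to 3.19 to 3.99 CPM in WT livers, 4.84 to 5.93 CPM in N-LKO livers and 7.75 to 11.5 CPM in tumors on WD. On HFD they overlapped, with 1.73 to 4.00 CPM in WT and 1.95 to 2.88 CPM in N-LKO livers. Tumor replicate 3, the lowest in chaperones, had the highest B and plasma cell, bile duct and hepatocyte markers of the tumors. It also had their lowest macrophage, stellate cell and T cell markers, and its endothelial markers lay between those of the other tumors.

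The chaperone and ERAD members were also split by whether the promoter window held an ERSE or ERSE-II. The 11 members with an element had a median log2 fold change of -0.37 under HFD and -0.42 under WD between N-LKO and WT liver, and the 11 chaperone and ERAD members with a window but no exact match had -0.38 and -0.30. Against N-LKO liver the tumors had 0.19 and 0.27, and against WT liver -0.14 and -0.05, in the same order. These medians are descriptions without a test, and exact letters miss weaker elements.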

How the data were processed

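RNA-seq was run on 17 samples of mouse liver and tumor. Per the study's methods, ribosomal RNA was removed, libraries were made with a small RNA kit (which the labels also name), single-end reads were sequenced and TopHat2 was used, whereas the submitters' processing notes name STAR, Partek and mm9. The authors deposited expected counts, that is, counts estimated for each gene by an expectation-maximization step in Partek that divides shared reads. Gene positions matched GENCODE M21 of GRCm38 for 96.8% of HFD genes and 96.4% of WD genes. All 17 columns were assigned to samples from the labels and 0 were left out. Strand use was not stated, so overlapping and antisense genes could not be told apart.

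After rounding, edgeR 4.0.16 (R 4.3.3) was run across all genes (TMM scaling, filterByExpr, quasi-likelihood F test, Benjamini-Hochberg adjusted p under 0.05 over all genes), with the HFD livers fitted alone, the 3 WD groups together, and the interaction over the 14 livers. SE is the log2 fold change divided by the square root of F. CPM used TMM-scaled totals. The fits were tested on simulated data. Alternatives were DESeq2 1.42.0 (size factors and test), limma-voom (limma 3.58.1), upper-quartile scaling, no filter, a mean of 1 CPM, a length and GC offset (mgcv 1.9.3), a replicate block, the 2 compared groups alone, and each library left out.

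Same-numbered HFD libraries correlated at -0.076 to 0.107 in their deviations from the group means, and WD libraries at -0.124 to 0.101, so the numbers were not taken as pairs. Members and lists were chosen with earlier results of these data known. The rule named all 35 members, with values in every sample for those past a threshold and for Hspa5, Xbp1, Ern1, Atf6, Eif2ak3, Atf4 and Ddit3, up to 3 genes per other list, and Nus1, except that 1 ERAD gene is not reported here. Sdf2l1, Herpud1 and Trib3 were given in every sample after their values were seen.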

Additional observations from a re-analysis of the deposited data

Results flagged for a closer look

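Of 70 sets of 4 HFD values, 1 for each member and group, 4 held a value far from the other 3 by Dixon's test at the 95% level, and chance flags about 1 in 20 such sets. Edem3 in WT livers reached 60.4 CPM in replicate 2 where the others had 45.6 to 47.5 CPM, and without that library its log2 fold change was -0.46 (adjusted p = 0.0336). In N-LKO livers, replicate 2 stood apart for both Ddit3 (9.54 CPM where the others had 5.29 to 5.43 CPM) and Trib3 (11.7 CPM where the others had 5.51 to 6.08 CPM). Asns was at 0.0 CPM in N-LKO liver replicate 1 and at 0.905 to 0.977 CPM in the others. Groups of 3 were not tested in this way, and no member's genotype effect differed between diets past the adjusted threshold.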

How the results depend on the processing

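The number of members called between N-LKO and WT liver on HFD was 2, and it was 5 with DESeq2, 1 without the filter, 1 with the length and GC offset and 1 to 9 with a library left out. For tumors against N-LKO liver the 0 calls became 1 with DESeq2 and 0 to 1 with a library left out, and for tumors against WT liver the 1 call became 2 with DESeq2, 0 with the 2 groups alone and 0 to 4 with a library left out. The replicate numbers were not taken as pairs, although low correlations in groups this small cannot exclude pairs. The fit with a replicate block called 5 members under HFD and 2 in tumors against WT liver, with no other change in a count. Calls between the WD livers and in the interaction were 0 throughout. The 4 member medians moved by less than the spread of library medians. That spread, 0.27 to 0.38, was larger than the medians of both tumor comparisons, so a change of sign could stay within it. The median of tumors against WT liver did change sign. The sign of several fold changes near 0 turned: for tumors against N-LKO liver, Atf4 (-0.0003) was 0.0039 with the 1 CPM filter, 0.0060 with the 2 groups alone, 0.012 with upper-quartile scaling and -0.19 to 0.14 with a library left out, and for tumors against WT liver, Eif2ak3 (0.0013) was -0.017 with DESeq2 size factors, -0.017 with the DESeq2 test, -0.095 with the length and GC offset, -0.051 with limma-voom, -0.041 without the filter, -0.018 with the 2 groups alone, -0.042 with the replicate block and -0.25 to 0.26 with a library left out. With a library left out, tumors against N-LKO liver had Hspa5 at -0.022 to 0.57, Xbp1 at -0.29 to 0.029, Eif2ak3 at -0.48 to 0.0010 and Ddit3 at -0.072 to 0.58, tumors against WT liver had Hspa5 at -0.47 to 0.12 and Atf4 at -0.34 to 0.086, and WD livers had Atf4 at -0.26 to 0.086. The cause was not tested. With 3 or 4 libraries in a group and chaperones that differed up to 7.71-fold within one, differences of the size of the medians could not be told from the spread between libraries.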
